A study of Mus musculus with 5 samples.

Results

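The genes described here are 6 receptor genes of myeloid cells, chosen by name: Ccr1, Ccr2, Ccr3, Ccrl2, Cx3cr1 and Cxcr4. All 6 were found among the 21887 protein-coding genes on assembled chromosomes of the RefSeq table. Every deposited peak inside a gene span or within 50 kb of it was taken, which gave 14 peaks from 4 peak lists. Chemokine receptors are cell surface receptors that couple to G proteins and steer leukocytes along gradients of small secreted proteins, the chemokines. Monocytes leave the bone marrow and enter tissue through such receptors, and macrophages keep some of them and lose others as they mature. c-Maf is a basic leucine zipper transcription factor of macrophages and T cells that binds DNA as a dimer.

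The lists come from chromatin immunoprecipitation followed by sequencing of mouse bone marrow macrophages with a C57Bl/6 background. The 5 samples are 2 libraries made with an antibody to c-Maf, 2 isotype control libraries made with normal rabbit immunoglobulin and 1 input library. All 5 share the same cells, strain and culture state, and the labels give no genotype and no polarizing agent. The source and cell type labels say M2, the alternative state reached by polarization in culture, while the titles say M0, and the labels do not resolve this. Each antibody has a library numbered 3 and one numbered 4, and the series' design text calls these biological replicates. They are called c-Maf list or library 3 and 4 and isotype list or library 3 and 4 here, and the 1 input, numbered 4, served as control for all 4 lists. A peak list holds no expression values, so the cell type label could not be checked against marker genes.

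After duplicate filtering 22017759 tags were left in c-Maf library 3, 21655683 in c-Maf library 4, 21833446 in isotype library 3 and 21779401 in isotype library 4. The lists differed in length, at 23434 peaks in c-Maf list 3, 17620 in c-Maf list 4, 58732 in isotype list 3 and 15568 in isotype list 4. In isotype list 3, 18.8% of the peaks had 3 tags at their summit, while the lowest peak of every other list had 4 tags. Peak counts near a gene therefore have to be read against the length of each list. The fragment length in the file headers was 63 bp for c-Maf list 3 and 60 bp for c-Maf list 4. It was 53 bp for isotype list 3 and 56 bp for isotype list 4. The part of this setting in the 3-tag peaks was not tested.

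The genes occupy 4 loci in mm10 coordinates. Ccr1 (chromosome 9, 123962126 to 123968692), Ccr3 (124017825 to 124031692) and Ccr2 (124101918 to 124109140) lie in one cluster, with 49.1 kb between Ccr1 and Ccr3 and 70.2 kb between Ccr3 and Ccr2, and their windows join into 1 locus of 247 kb. Ccr1l1 lies within the same stretch. Ccrl2 (chromosome 9, 111054834 to 111057518) is on the same chromosome but 12.9 Mb from Ccr1, so it was kept as a locus of its own. Cx3cr1 (chromosome 9, 120048683 to 120068296) and Cxcr4 (chromosome 1, 128588199 to 128592299) form the other two loci.

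No promoter of the 6 genes held a peak of any list. RefSeq (GRCm38.p6) promoter windows run from 250 bases before to 50 bases after a start, and the 6 genes have 8 of them, 3 for Ccrl2 and 1 for each other gene. The nearest peak of any list lay 36.4 kb from the Ccr1 window, 49.7 kb from that of Ccr3, 12.8 kb from that of Ccr2, 67.1 kb from that of Cx3cr1, 16.2 kb from that of Cxcr4, and 4.2 to 4.5 kb from those of Ccrl2. The windows of Ccr1, the receptor gene with the most peaks nearby, and of Ccr3, where motif letters were found, are shown 5′ to 3′ on the strand of the gene. They span chr9:123968643-123968942 (minus strand) and chr9:124021721-124022020 (plus strand), and capitals mark motif matches. The Ccr3 window lies inside the Ccr3 span given above, so the 5′ end of that span was not searched.
Ccr1: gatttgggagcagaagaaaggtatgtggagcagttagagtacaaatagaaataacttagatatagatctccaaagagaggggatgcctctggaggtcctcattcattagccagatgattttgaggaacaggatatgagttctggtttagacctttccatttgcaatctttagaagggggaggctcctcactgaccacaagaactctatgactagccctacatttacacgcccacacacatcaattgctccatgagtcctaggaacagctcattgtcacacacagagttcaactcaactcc
Ccr3: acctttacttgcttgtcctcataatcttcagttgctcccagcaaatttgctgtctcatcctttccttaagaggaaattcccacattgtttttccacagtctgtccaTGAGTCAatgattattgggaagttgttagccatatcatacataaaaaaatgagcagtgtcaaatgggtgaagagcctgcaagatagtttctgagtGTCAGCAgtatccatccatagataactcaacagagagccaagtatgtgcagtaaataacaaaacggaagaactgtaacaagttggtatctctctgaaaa
Searched on both strands were the full Maf recognition element in its TRE-type and CRE-type forms, the left part that both share, TGCTGAC, and the AP-1 core TGANTCA, which the TRE-type form also contains. Ccr3 was the only one of the 6 genes with a match. Its window holds TGAGTCA at bases 107 to 113, and GTCAGCA, which is TGCTGAC on the other strand, at bases 202 to 208. Of 32851 promoter windows of that length, 7.81% hold TGANTCA and 4.67% hold TGCTGAC, while the full TRE-type element was found in 1 window and the CRE-type one in 0. These matches are letters only, and Ccr3 had no peak of any list closer than 40.0 kb. The bases under the peaks themselves are not shown, since no genome sequence was used here.

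Peaks were few around most of the receptor genes and crowded on one side of Ccr1. Over the 4 loci, with a peak shared by 2 gene windows counted once, c-Maf list 3 held 6 peaks, c-Maf list 4 held 3, isotype list 3 held 4 and isotype list 4 held 1. Of these 14 peaks, 8 lay downstream of Ccr1 within a stretch of 7.8 kb, 7 of them from the c-Maf antibody. None of the 14 lay inside one of the 6 genes, whose spans run from 2685 to 19614 bp (median 6895 bp). Among all protein-coding genes, whose median span is 17169 bp, 47.4% held a peak of at least 1 list.

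**Figure D1:**
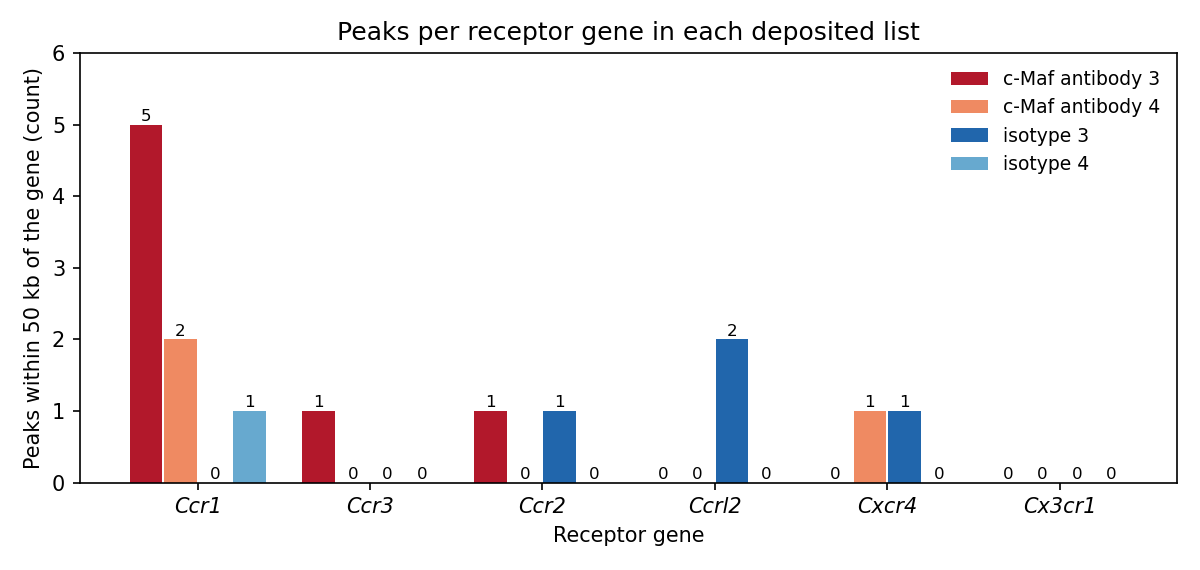
Bars give the number of deposited peaks within 50 kb of each receptor gene (y axis, count), 1 bar per peak list, with the value above it; a peak within reach of both Ccr3 and Ccr2 is drawn at both. Ccr1 has 5 and 2 c-Maf antibody peaks, and Cx3cr1 has 0 in every list.

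The mean number of peaks at the loci was 4.5 for the c-Maf antibody and 2.5 for the isotype, a difference of 2 peaks, and the 2 groups overlapped (exact permutation test over 4 libraries, two-sided, p = 0.667, adjusted over 2 comparisons p = 0.667). As a share of each list, the loci took 0.0256% and 0.017% of the c-Maf antibody peaks and 0.00681% and 0.00642% of the isotype peaks. Both c-Maf antibody shares were above both isotype shares, and the mean difference was 0.0147 percentage points (exact permutation test, two-sided, p = 0.33, the smallest that 2 against 2 libraries can give; adjusted p = 0.667). This separation was lost with all lists cut to equal length, where c-Maf list 4 and isotype list 3 both had 0.0128%. At a q-value of 0.05 it was lost too, with 0.198% in c-Maf list 4 and 0.245% in isotype list 4. The difference in counts was 0.5 without c-Maf library 3 or isotype library 4, and 3.5 without c-Maf library 4 or isotype library 3. It turned to -0.5 when peaks of one list less than 10 kb apart were counted once, because the crowded peaks near Ccr1 then count as 1 per list. It also turned within 10 kb of the genes, to -1, and within 5 kb, to -0.5, where no c-Maf antibody peak was left.

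Read against all genes, the receptor genes did not have many peaks. In c-Maf list 3, 3 of the 6 genes had a peak within 50 kb, against 66.7% of all protein-coding genes, and in c-Maf list 4 it was 2 of 6, against 53.8%. For the isotype lists the counts were 3 of 6 against 85.0% (list 3) and 1 of 6 against 47.3% (list 4). The mean number of peaks per gene window over the 6 genes was 1.17 in c-Maf list 3, 0.5 in c-Maf list 4, 0.667 in isotype list 3 and 0.167 in isotype list 4. Over all genes it was 1.42, 0.988, 3.09 and 0.847 in the same order. The 6 genes thus lay below the mean of all genes in each of the 4 lists. By medians they lay below in 3 lists, while in isotype list 4 both medians were 0. In c-Maf list 3, Ccr1 alone had 5 peaks, and 1 peak counted for both Ccr3 and Ccr2. The median span of the 6 genes is 6895 bp against 17169 bp for all genes. Windows include the span, and these comparisons were not adjusted for it.

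Peaks that shared 1 bp or more, whatever their list, were joined into regions. The 14 peaks made 11 regions, of which 9 were held by 1 list. One region was held by both c-Maf antibody libraries and neither isotype library, a class called c-Maf-only here, and one by 3 lists. Both lay downstream of Ccr1. No region at the loci was held by both isotype lists alone. Of the 6 genes, Ccr1 alone lay within 50 kb of a c-Maf-only region, as did 3.17% of all protein-coding genes, and 0 of 6 had an isotype-only region, against 1.45%. The count rests on 1 gene and no test was made of it.

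Ccr1 encodes a receptor for the inflammatory chemokines CCL3 and CCL5 on monocytes and neutrophils. It had 5 peaks of c-Maf list 3, 2 of c-Maf list 4, 0 of isotype list 3 and 1 of isotype list 4. Since the gene is read from the minus strand, all 8 lay beyond its 3′ end, between 29.8 and 37.6 kb downstream. As many peaks of c-Maf list 3 within 50 kb, 5 or more, were found at 4.04% of all protein-coding genes.

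**Figure D2:**
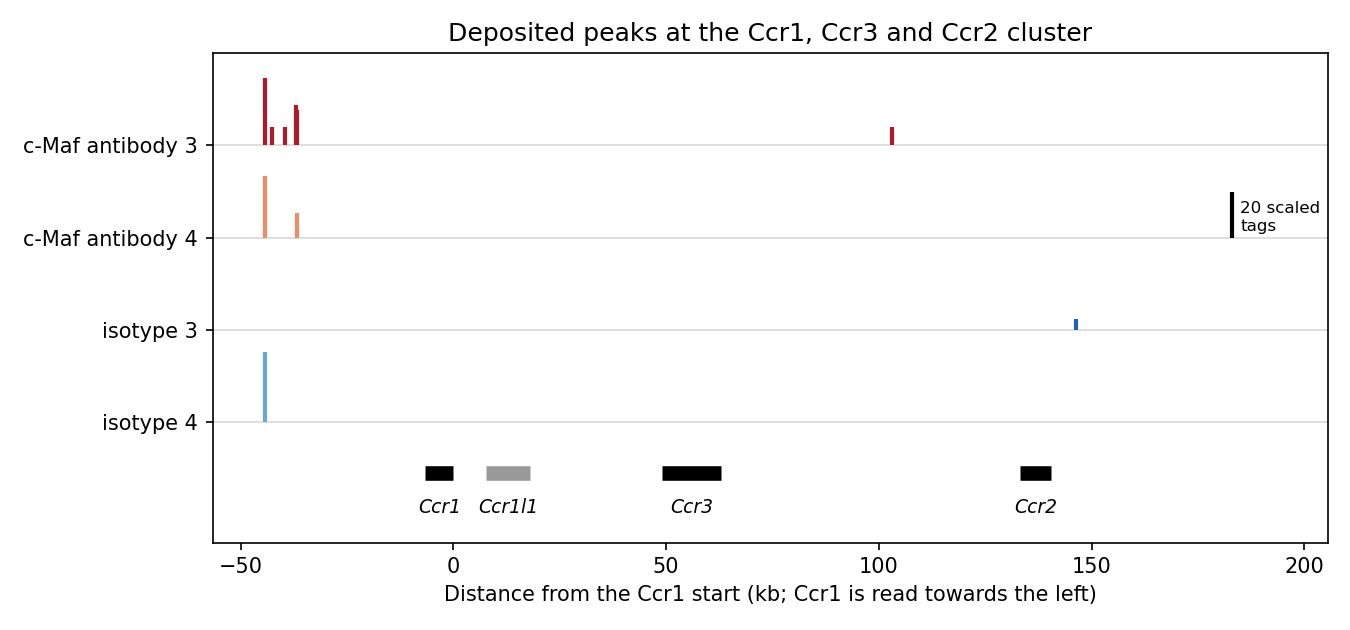
Peaks of the 4 lists along the Ccr1, Ccr3 and Ccr2 cluster, with the distance from the Ccr1 start in kb on the x axis, 1 track per list and the height of each line giving the summit pileup against a bar of 20 scaled tags. Black boxes are the 3 receptor genes described and the grey box is Ccr1l1; most lines stand to the left of Ccr1, and no line falls on a gene drawn.

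The c-Maf-only region spanned 368 bp (chromosome 9, 123931910 to 123932277) and overlapped no annotated gene. The peak of c-Maf list 3 ran from 123931920 to 123932277, 358 bp long and 29.8 kb from Ccr1, with a summit pileup of 15.53, where pileup is the count of extended tags over a base, scaled to the input library. That pileup is 16 tags (exact Poisson interval at 95%, 9.15 to 26). The authors' scores for it were a fold enrichment over local input of 5.98 and a −log10 q of 4.09, and 0.29% of that list had a p-value as small. The peak of c-Maf list 4 ran from 123931910 to 123932066, 157 bp long, with a pileup of 10.86 or 11 tags (interval 5.49 to 19.7), a fold enrichment of 3.95 and a −log10 q of 0.31. That peak did not pass a q-value of 0.05, and 12.88% of its list had a p-value as small.

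The c-Maf antibody summits of this region were 26 bp apart. The peaks shared 147 bp, which is 93.6% of the list 4 peak but 41.1% of the list 3 peak, so the region was lost where 50% reciprocal overlap was asked for. At a q-value of 0.05 it was lost as well, since the list 4 peak dropped out. By the mean share of the list with a p-value as small, 6.59%, it stood at place 58 of the 491 c-Maf-only regions of the genome. Of those 491 regions, 36 passed a q-value of 0.05 in both c-Maf antibody libraries and 99 in 1 of them, as this region did.

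The local input level, in scaled tags, was recovered from the deposited pileup and fold enrichment. It is the background the caller scored each peak against, and need not be the input tag count at the site. Fragment length differed by list, and its part in these levels was not tested. In isotype list 3 the median level was 0.42, which every peak of that list at the loci had. At the c-Maf-only region the level was 1.76 in c-Maf list 3 and 2.00 in c-Maf list 4, against list medians of 0.57 and 0.54. Of the peaks of those lists, 3.81% and 3.89% had an input level as high. Lacking a peak does not mean lacking tags. Isotype peaks elsewhere with an input level of 1.7 to 2.1 had at least 7 tags in isotype list 3 and at least 6 in isotype list 4, so isotype tags below those numbers could be present. The region was picked because both c-Maf lists had a peak there and neither isotype list did. Its c-Maf antibody tags therefore cannot test whether the isotype tags were fewer.

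**Figure D3:**
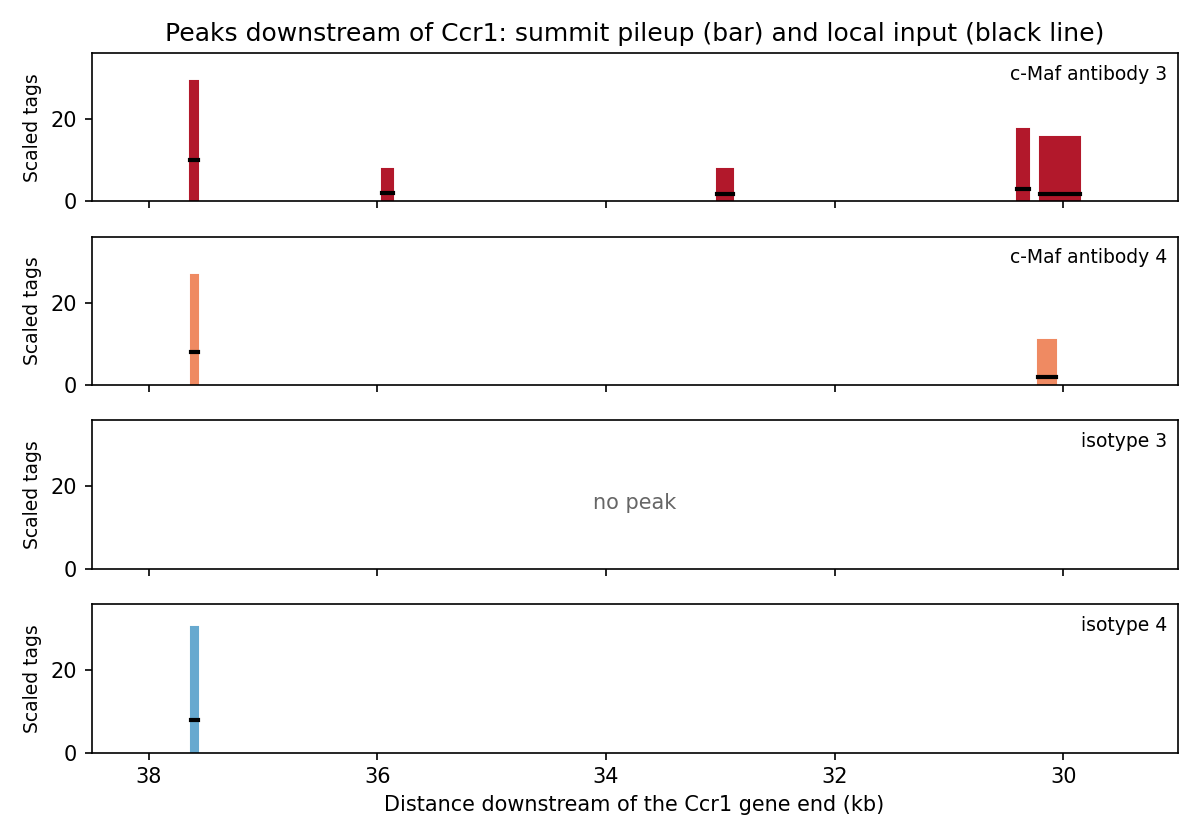
Each bar is a deposited peak downstream of Ccr1, with its width to scale on the x axis (distance from the gene end, kb) and its height giving the summit pileup in scaled tags; the black line is the local input level, and each panel is a list. The c-Maf-only region is the pair of bars near 30 kb, and the region near 37.6 kb has a bar in both c-Maf antibody panels and in the isotype panel numbered 4.

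At the other end of the stretch a narrow region of 71 bp (chromosome 9, 123924490 to 123924560) was held by both c-Maf antibody lists and isotype list 4. Pileups there were 29.12 (30 tags, Poisson interval 20.2 to 42.8) in c-Maf list 3, 26.64 (27 tags, 17.8 to 39.3) in c-Maf list 4 and 30.42 (31 tags, 21.1 to 44) in isotype list 4. The tag numbers of the 3 libraries lay within each other's intervals. These were the highest pileups at any of the receptor genes, and the 3 summits lay within 12 bp. The local input level was also high, at 10, 8.00 and 8.00 scaled tags, a level reached by 0.862%, 1.38% and 1.55% of the peaks of those lists. Fold enrichments were 2.74, 3.07 and 3.49. All 3 peaks passed a q-value of 0.05, with −log10 q of 1.37, 1.52 and 3.17 in the same order. At the loci no other peak of c-Maf list 4 did. In isotype list 4 the peak was among the strongest, since 0.50% of that list had a p-value as small. Genome-wide, 79 regions were held by this set of 3 lists.

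Between the 2 regions lay 3 peaks of c-Maf list 3 alone. The one at 123931720 to 123931823, 104 bp long, stood 96 bp from the list 3 peak of the c-Maf-only region and had a pileup of 17.47, or 18 tags (10.7 to 28.4), a fold enrichment of 4.62, a −log10 q of 2.70 and an input level of 3.00. It passed a q-value of 0.05 in that library, but c-Maf list 4 had no peak there. The remaining pair, at 123926165 to 123926265 inside the long non-coding RNA gene Gm51701 and at 123929097 to 123929239, each had a pileup of 7.76 or 8 tags, a −log10 q of 0.00 and input levels of 2.00 and 1.76. All 8 peaks of the stretch thus had a local input level between 1.76 and 10 scaled tags. The part of the input level in these peaks was not tested.

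**Figure D4:**
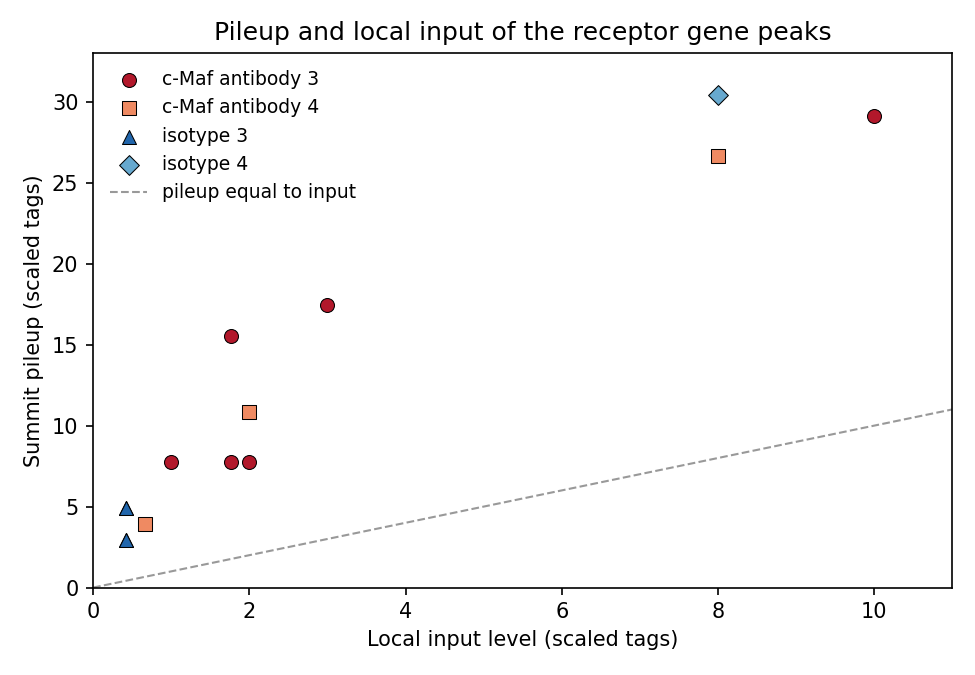
Summit pileup (y axis, scaled tags) against local input level (x axis, scaled tags) for the 14 peaks at the receptor genes, 1 symbol per peak and 1 kind of symbol per list; the 4 peaks of isotype list 3 show as 2 symbols because their values nearly coincide. The 3 peaks at inputs of 8.00 and 10 are the narrow region downstream of Ccr1, and every symbol lies above the dashed line of equal pileup and input.

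Ccr3 encodes the eotaxin receptor, best known on eosinophils and basophils. Its window held 1 peak, of c-Maf list 3, at 124071704 to 124071804 and 40.0 kb downstream of the gene. The peak was 101 bp long with a pileup of 7.76 or 8 tags (3.45 to 15.8), a fold enrichment of 4.38 and a −log10 q of 0.37, and its input level was 1.00. The nearest peaks of the other lists lay 85.8 kb (c-Maf list 4), 83.3 kb (isotype list 3) and 93.3 kb (isotype list 4) away, so the list 3 peak had no counterpart in its replicate.

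Ccr2 encodes the receptor for CCL2 that lets inflammatory monocytes leave the bone marrow. The same peak lay 30.1 kb upstream of Ccr2 and was its only c-Maf antibody peak within 50 kb. A peak of isotype list 3 lay closer, 5.9 kb downstream of the gene at 124115015 to 124115067, with a pileup of 4.89 or 5 tags (1.62 to 11.7), a fold enrichment of 4.15 and a −log10 q of 0.00. In both lists numbered 4 the nearest peaks lay 148.5 kb (c-Maf antibody) and 148.6 kb (isotype) away, beyond the downstream end of the gene.

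Ccrl2 encodes an atypical receptor that binds the chemoattractant chemerin and does not itself signal like the others. Both of its peaks came from isotype list 3. They lay 4.5 kb upstream of the gene (111061992 to 111062044) and 16.9 kb downstream of it (111037928 to 111037980), the latter inside Ltf, the lactoferrin gene of neutrophil granules. Each was 53 bp long with 3 tags at the summit (0.619 to 8.77), a level found in that list alone. Peaks of the c-Maf antibody were no closer than 94.4 kb in list 3 and 113.6 kb in list 4.

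Cxcr4 encodes the receptor for CXCL12, which holds blood cells in the bone marrow. Its window held 1 peak of c-Maf list 4 and 1 of isotype list 3, and 0 of the others. The c-Maf antibody peak lay 42.4 kb downstream of the gene at 128545790 to 128545849, inside the long non-coding RNA gene Gm41950, with 4 tags (1.09 to 10.2) and a fold enrichment of 2.98. This was among the weakest peaks of its list, with 99.11% of the list having a p-value as small. The isotype peak lay closer, 12.1 kb downstream at 128576007 to 128576062, with 5 tags (1.62 to 11.7) and a fold enrichment of 4.14.

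Cx3cr1 encodes the fractalkine receptor of patrolling monocytes and many resident macrophages. It was the one gene of the 6 with no peak of any list within 50 kb, a state shared with 3.84% of all protein-coding genes. The first peak outside the 50 kb limit was of c-Maf list 4, 51.9 kb downstream at 119996715 to 119996774, with a pileup of 3.95. In the other lists the nearest peaks lay 85.4 kb (c-Maf list 3), 67.4 kb (isotype list 3) and 466.9 kb (isotype list 4) away. The member peak closest to the limit on its inner side was the Cxcr4 peak at 42.4 kb, also with a pileup of 3.95. Widening the limit to 100 kb added 9 peaks over the 4 loci, 4 of c-Maf list 3, 1 of c-Maf list 4, 4 of isotype list 3 and 0 of isotype list 4. The added peaks had 4 to 8 tags and none passed a q-value of 0.05.

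By the number of c-Maf antibody peaks within 50 kb, Ccr1 came first with 5 and 2, and the other genes had 1 and 0 (Ccr3, Ccr2), 0 and 1 (Cxcr4) or 0 and 0 (Ccrl2, Cx3cr1). The 2 c-Maf lists ordered these last 5 genes differently. The distance to the nearest c-Maf-only region was 29.8 kb at Ccr1, 85.5 kb at Ccr3, 169.6 kb at Ccr2, 373.4 kb at Ccrl2, 1262.0 kb at Cx3cr1 and 1317.3 kb at Cxcr4, against a median of 1656.3 kb over all protein-coding genes. The first 3 distances are to the same region. A c-Maf-only region at least as near as that of Ccr1 was found for 2.3% of all genes. The nearest isotype-only region lay 2526.7 kb (Ccrl2) to 8351.7 kb (Ccr2) away, against a median of 2963.3 kb.

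Genes with the same presence or absence of a peak within 50 kb in the 4 lists were counted as the measure of likeness. The pattern of Ccr1, a peak in every list but isotype list 3, was shared with 353 other genes, among them 1 listed chemokine receptor gene, Ackr1. That pattern was found at 1.62% of all protein-coding genes. The patterns of the other members were shared with 618 (Ccr3), 2751 (Ccr2), 1841 (Ccrl2), 839 (Cx3cr1) and 1495 (Cxcr4) genes. Those are the patterns of 2.83%, 12.6%, 8.42%, 3.84% and 6.84% of all genes in the same order. Ccr2 shared its pattern with 11 listed genes, Ccrl2 with 3, Cxcr4 with 1, Ccr3 with 0 and Cx3cr1 with 1, Xcr1. The 11 include neighbouring ligand genes whose windows share peaks, so they are not independent.

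Of 18 other chemokine receptor genes, 2 lay within 50 kb of a c-Maf-only region, against 3.17% of all protein-coding genes. They were Ccr1l1, which reaches the region already counted at Ccr1 at a distance of 44.2 kb, and Cmklr1, which encodes a signalling receptor for chemerin. The Cmklr1 region lay inside the gene (chromosome 5, 113644616 to 113644705), with pileups of 9.71 (10 tags) in c-Maf list 3 and 6.91 (7 tags) in c-Maf list 4, fold enrichments of 5.89 and 4.30 and −log10 q of 2.18 and 0.23. Of 14 genes for ligands of the 6 receptors, among them Ccl2, Ccl3, Ccl5, Cx3cl1, Cxcl12 and Rarres2, 0 did. No gene of either list had an isotype-only region within 50 kb. Peaks of c-Maf list 3 were near 10 of the 18 receptor genes and 13 of the 14 ligand genes, against 66.7% of all protein-coding genes, and those of c-Maf list 4 near 8 and 2, against 53.8%. Peaks of isotype list 3 were near 11 and 12 of these genes, against 85.0%, and those of isotype list 4 near 7 and 5, against 47.3%. The receptor genes were thus below the share of all genes in each list, while the ligand genes were above it in c-Maf list 3, near it in isotype list 3 and below it in both lists numbered 4. Many ligand genes lie side by side, so that their 14 windows join into 6 and share peaks.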

How the data were processed

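Chromatin from 4 antibody libraries and 1 input library of mouse macrophages had been sequenced. Per the labels' protocols, it was sonicated to 100 to 500 bp. The authors called peaks in each library with MACS 2.1.1.20160309 against the input of number 4, at a p-value cut-off of 0.01 with 1 tag kept per position, per the file headers, which give the human genome size. The submitters' processing notes list mm10 as the build, with FastQC, MACS2 and MACS 1.4.2 as tools. No aligner is named in the sources used here. Deposited values are peak positions and lengths, the pileup signal at the summit, the fold enrichment (a ratio to local input with 1 added to both parts) and the −log10 of p-value and q-value, all as the authors' caller gave them. The p-values were ranked within a list, and ranks of 2 lists were averaged for c-Maf-only regions. Pileups and fold enrichments were set side by side across lists, which share the same input.

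Pileups divided by the library scaling gave whole tags within 0.02 for 100% of peaks in each list. Poisson intervals cover counting error only. Gene spans came from a RefSeq table of GRCm38.p6, the assembly of mm10, and strand from its promoter table. Peaks within 50 kb of a span were counted once per locus. Ccrl2 had been planned as part of the cluster, but its coordinates place it elsewhere. Counts per library were compared by exact permutation. Each p-value is the share of assignments of the libraries to the groups with a difference at least as large, and covers these libraries only. Region counts have no test. Window counting and merging were tested on simulated data. Named are the 6 members with every peak, genes that a described peak lies in, and genes of the 2 lists (other receptors and ligands) with a c-Maf-only region. Ackr1 and Xcr1 are named as listed genes of like pattern, and 6 ligand genes as examples. One gene of the planned receptor list is not reported here. Members and lists were chosen with earlier results of these data known. Python 3.11.15, pandas 2.3.3 and scipy 1.17.1 were used. Alternatives were the window, peak threshold, list length, overlap rule, each library left out, the replicate number as a block, peaks counted once per 10 kb and peaks of 4 tags or more.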

Additional observations from a re-analysis of the deposited data

How the results depend on the processing

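Counting peaks once per 10 kb and keeping only peaks of 4 tags or more in every list were chosen after seeing the data. The difference in peak counts at the loci (2) turned to -0.5 within 5 kb, -1 within 10 kb and -0.5 when peaks within 10 kb counted once, and the difference in shares (0.0147 percentage points) to -0.000851 within 5 kb and -0.0017 within 10 kb. Both differences kept their direction under the other alternatives run. With 1 library left out they ranged from 0.5 to 3.5 peaks and from 0.0104 to 0.019 percentage points. With so few libraries no exact permutation p could fall below 0.33. c-Maf-only regions numbered 0 within 5 kb, within 10 kb, at a q-value of 0.05 and at 50% reciprocal overlap, where 0 receptor genes had one. Within 100 kb the same 1 region counted for 2 genes, Ccr1 and Ccr3. Leaving out 1 library gave 1 to 5 c-Maf-only regions at 1 to 3 genes. There were 5 without c-Maf library 4 and 2 without c-Maf library 3, since a lone list is not filtered by a replicate, and 2 without isotype library 4, where the narrow region also counted. Isotype-only regions ranged from 0 to 4, with 4 without isotype library 4. With the numbers 3 and 4 as a replicate block, the differences were 2 peaks and 0.0147 percentage points, each with an exact permutation p of 0.5. That is the smallest possible, so this alternative could not have given a call. The labels tie same-numbered libraries to no common animal or date. Of the 14 peaks, 8 had 8 tags or fewer, which limits the precision of their pileups.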

Other observations

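The crowding downstream of Ccr1 was set beside other stretches of the genome where c-Maf list 3 had at least 5 summits within 10 kb, a definition chosen after the Ccr1 peaks were seen, as were the genes named here. There were 28 such stretches on assembled chromosomes, holding 302 peaks or 1.3% of that list there. Crowding was not particular to that list. By the same rule c-Maf list 4 had 27 stretches (1.71% of its peaks), isotype list 3 had 92 (1.02%) and isotype list 4 had 36 (2.65%). Many of the 28 stretches of c-Maf list 3 were crowded in isotype list 3 too, and 14 held 5 or more of its peaks. Among these were stretches at Sfi1, with 69 peaks of c-Maf list 3 and 87 of isotype list 3, and at Ugt1a10, with 29 and 15. A peak of c-Maf list 4 was found in 25 of the 28. Only 3 stretches had no peak of isotype list 3, and the one near Ccr1 was the only one of these 3 with a peak of c-Maf list 4, of which it had 2. It also held 1 peak of isotype list 4, which overlaps one of those 2. The other 2 lay 45.1 kb from Myom2 and 33.8 kb from Gm15319, with 0 peaks of c-Maf list 4 each and 0 and 2 of isotype list 4, so that the stretch near Myom2 was the only one of the 28 with no peak of either isotype list.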
